A study of Mus musculus with 3 samples.

Results

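The smooth muscle cells described here were chosen for their transcripts of Dlx5, Dlx6, Dlx6os1, Prss12 and Msx2. Low levels of these genes in the other smooth muscle cells of the same aortas are thus set in part by the choice. The chosen cells were found by a rule on unique molecular identifiers (UMIs, each marking 1 captured transcript). A barcode was kept as a cell when it had at least 200 detected genes, under 20% of its UMIs from mitochondrial genes and at least 5000 UMIs, as smooth muscle when Acta2 and Tagln together took at least 2% of its UMIs and Dcn took under 0.5%, and as a Dlx6/Prss12 cell when the 5 genes together had at least 4 UMIs. Of 28506 barcodes, 22737 passed the limits on quality and depth, 17512 of these passed the smooth muscle gate, and 343 were Dlx6/Prss12 cells. The remaining 17169 gated cells, with under 4 UMIs of the 5 genes, are called the other smooth muscle cells.

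The study asked how the human APOE alleles change the cells of the aorta under a Western diet. In all 3 groups the mouse Apoe gene had been replaced at its own locus by a human allele, APOE2, APOE3 or APOE4, so no group carried mouse Apoe and APOE3 served as the reference. The alleles were on a C57BL/6J background. Male mice received the diet (fat at 42%, cholesterol at 0.2%) for 16 weeks, starting at 12 weeks of age. Cells from whole aortas, from the arch to the iliac bifurcation, were pooled by genotype, and each pool gave 1 droplet library. The APOE2 pool came from 6 mice, the APOE3 pool from 5 and the APOE4 pool from 7. The deposited libraries held 169058334 UMIs for APOE2, 125553125 for APOE3 and 126077489 for APOE4. The mouse of origin of a cell is not recorded, so the genotypes had no replicates and were compared without a test. The 3 libraries served as replicates only where the Dlx6/Prss12 cells were compared with other cells of the same library.

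Dlx5 and Dlx6 are paired homeobox genes that act in the pharyngeal arches, where neural crest cells give rise to the facial skeleton and to the smooth muscle of the aortic arch and its branches. Dlx6os1 is a long noncoding RNA transcribed across the Dlx6 locus, Msx2 is a homeobox gene of the BMP response that acts in bone and in calcifying vessels, and Prss12 encodes neurotrypsin, a secreted serine protease that cleaves agrin at synapses. Smooth muscle of the arch arises largely from neural crest and that of the descending aorta from mesoderm, and only the latter is known for a strong Hox gene code.

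In mm10 coordinates (GENCODE M21), Dlx5 lies at chr6:6877805-6882085 on the minus strand and Dlx6 at chr6:6863334-6868568 on the plus strand. Dlx6os1, at chr6:6820189-6871592 on the minus strand, spans Dlx6. Whether the counting used strand is not given in the sources used here, so the split of reads between Dlx6 and Dlx6os1 is uncertain. Msx2 lies at chr13:53466884-53473074 (minus strand) and Prss12 at chr3:123446913-123506597 (plus strand). The RefSeq promoter table (GRCm38.p6, 250 bases before to 50 after a start) held 3 of the 5 genes, Dlx6os1 with entries for a pair of starts. The sequences are shown because these genes chose the cells and were detected together, and because Dlx and Msx proteins are homeodomain factors, whose DNA sites share the core TAATTA. Capitals mark TAATTA, which is its own reverse complement and so reads alike on both strands.
Dlx6os1, chr6:6869484-6869783, minus strand: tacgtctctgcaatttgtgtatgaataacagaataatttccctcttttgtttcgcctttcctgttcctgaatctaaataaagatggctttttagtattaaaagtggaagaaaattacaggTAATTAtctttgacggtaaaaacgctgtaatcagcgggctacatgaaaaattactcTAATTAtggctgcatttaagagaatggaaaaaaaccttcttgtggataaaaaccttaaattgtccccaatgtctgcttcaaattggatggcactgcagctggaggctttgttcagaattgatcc
Dlx6os1, chr6:6861634-6861933, minus strand: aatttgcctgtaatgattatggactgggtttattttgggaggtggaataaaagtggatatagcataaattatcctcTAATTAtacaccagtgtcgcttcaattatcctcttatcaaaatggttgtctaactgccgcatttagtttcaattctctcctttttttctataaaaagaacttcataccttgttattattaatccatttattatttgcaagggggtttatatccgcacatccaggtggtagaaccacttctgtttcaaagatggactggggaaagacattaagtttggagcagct
Msx2, chr13:53472731-53473030, minus strand: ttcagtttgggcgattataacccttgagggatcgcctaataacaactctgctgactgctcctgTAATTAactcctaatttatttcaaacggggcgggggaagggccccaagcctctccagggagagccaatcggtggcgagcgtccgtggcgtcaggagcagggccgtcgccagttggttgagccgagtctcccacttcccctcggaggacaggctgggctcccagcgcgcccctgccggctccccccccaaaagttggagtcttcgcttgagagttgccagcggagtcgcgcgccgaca
Prss12, chr3:123446663-123446962, plus strand: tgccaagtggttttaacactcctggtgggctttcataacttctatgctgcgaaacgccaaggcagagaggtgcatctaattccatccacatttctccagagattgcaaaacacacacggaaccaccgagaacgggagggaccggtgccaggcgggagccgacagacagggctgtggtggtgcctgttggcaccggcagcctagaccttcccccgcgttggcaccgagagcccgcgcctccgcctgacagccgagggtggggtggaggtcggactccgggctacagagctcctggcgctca
The first Dlx6os1 window held 2 matches, the second 1, the Msx2 window 1 and the Prss12 window 0. Of all 32544 promoters in the table, 1723 (5.29%) held the motif. A match is a description of the sequence and was not tested as a site.

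The Dlx6/Prss12 cells numbered 150 in APOE2, 72 in APOE3 and 121 in APOE4, and no barcode was shared between libraries among them. They were deeper than the other smooth muscle cells of their libraries, with medians of 31241.5, 23069.5 and 24439 UMIs per cell against 14680.5, 19964.5 and 15589 (here and below, values are given in the order APOE2, APOE3, APOE4). Part of this depth is fixed by a rule that asks for a count. The APOE2 library stood apart, because 34 of its 150 Dlx6/Prss12 cells (22.7%) had over 60000 UMIs and supplied 52.8% of their summed UMIs, against 3 such cells in APOE3 and 1 in APOE4. Several results that rest on APOE2 are therefore also given without cells over 60000 UMIs. Of the Dlx6/Prss12 cells, 6, 8 and 13 (4%, 11.1% and 10.7%) had doublet scores in the top 6% of their library, against 6.27%, 6.14% and 6.72% of the other smooth muscle cells. Their median share of mitochondrial UMIs, 1.28%, 1.63% and 2.40%, was under that of the other cells (2.22%, 1.72% and 2.92%).

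The markers named for these cells were Dlx6, Dlx6os1, Prss12, Msx2 and Adamtsl1, and all but Adamtsl1 are in the rule, so their levels are a description. Levels are UMIs of a gene per 1000000 UMIs after all cells of 1 class and library were added up (CPM). Prss12 had 71.9, 140.1 and 104.8 CPM in the Dlx6/Prss12 cells against 2.31, 2.22 and 1.51 in the other smooth muscle cells. Dlx5 had 38.4, 95.02 and 73.0 CPM against 2.05, 1.72 and 1.395. Dlx6 had 25.01, 74.5 and 68.9 CPM against 0.977, 0.635 and 0.758. Dlx6os1 had 15.9, 44.6 and 42.4 CPM and Msx2 11.8, 37.7 and 30.6 CPM. The classes did not overlap for any of the 5 genes, and APOE2 was the lowest library for each. For Prss12 this order rested on cells over 60000 UMIs. With these left out Prss12 was at 118.9, 153.1 and 106.6 CPM, lowest in APOE4. APOE2 stayed the lowest library for Dlx5, Dlx6, Dlx6os1 and Msx2.

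Adamtsl1, at chr4:85514172-86428385 on the plus strand, encodes a secreted ADAMTS-like matrix protein. Its level in the Dlx6/Prss12 cells was 199.5, 571 and 463 CPM, and in the other smooth muscle cells 6.46, 5.08 and 3.73 CPM. Over cells of at most 60000 UMIs these levels were 379.5, 631.8 and 470.3 CPM against 5.78, 4.98 and 3.73, so the APOE2 level moved most. The classes did not overlap in any library. After each cell was thinned to 5000 UMIs, so that depth could not set the share, Adamtsl1 was seen in 56.7%, 68.1% and 65.3% of the Dlx6/Prss12 cells against 1.51%, 1.92% and 1.02% of the others. Immune cells were gated by at least 2 Ptprc UMIs with Acta2 and Tagln under 2% of UMIs, and were expected to lack the gene. They had it in 2.88%, 2.67% and 1.86% of cells at the same 5000 UMIs. The share in the other smooth muscle cells was thus at this background. Adamtsl1, the marker that the rule did not use, was thus also high in these cells. The cells and their markers were chosen with earlier results of these data known, so this is a description and not independent evidence for the label.

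**Figure D1:**
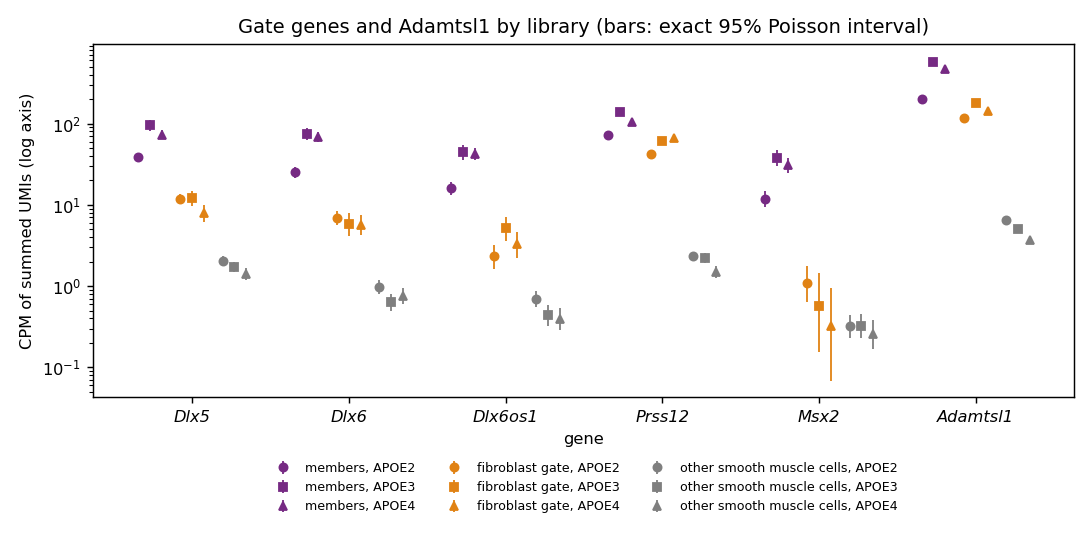
Level in CPM (log axis) of the 5 genes of the rule and of Adamtsl1 in each library, for the Dlx6/Prss12 cells (members), the other smooth muscle cells and the fibroblast gate. Bars on the points are exact 95% Poisson intervals, and every gene lies higher in the members than in the other smooth muscle cells of the same library, with Adamtsl1 at 199.5 to 571 CPM against 3.73 to 6.46.

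The smooth muscle identity of the cells rests on the gate for Acta2 and Tagln and on contractile genes outside it. Myh11, the smooth muscle myosin heavy chain, was at 1620, 2218 and 2065 CPM in the Dlx6/Prss12 cells, at 2560, 2557 and 2726 in the other smooth muscle cells, and at 127, 42.7 and 82.4 in fibroblasts gated by Dcn. Cnn1, or calponin, was at 1242, 1379 and 1407 CPM against 1346, 1411 and 1349, a range that overlaps. Myl9, the regulatory myosin light chain, was at 5947, 5178 and 4611 CPM against 5331, 6002 and 4745, again with overlap. The Dlx6/Prss12 cells sat close to the gate, since their median share of UMIs from Acta2 and Tagln was 3.53%, 2.93% and 2.74% against 3.75%, 4.54% and 4.15%. A share of 38.7%, 56.9% and 60.3% of them lay between 2% and 3%, where 25.8%, 8.20% and 12.1% of the other smooth muscle cells lay. A further 85, 41 and 71 cells with the same 4 UMIs lay just under the gate, at 1% to 2%.

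Cells with at least 4 UMIs of the 5 genes also occurred outside smooth muscle. In the fibroblast gate they were 61 of 1143, 37 of 575 and 48 of 850 cells (5.34%, 6.43% and 5.65%), and in the immune gate 3 of 312, 0 of 75 and 1 of 161. Fibroblasts had 41.6, 60.7 and 66.4 CPM of Prss12 and 118.4, 179.8 and 142.1 CPM of Adamtsl1, but only 1.10, 0.569 and 0.327 CPM of Msx2. Dlx5 in fibroblasts was at 11.8, 12.1 and 7.85 CPM, between the Dlx6/Prss12 cells and the other smooth muscle cells in every library.

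Within the 343 cells, nearly every cell had a Dlx gene and a minority had Msx2, which describes how the rule was met. At least 1 of Dlx5, Dlx6 and Dlx6os1 was seen in 334 cells (97.4%), all 3 in 105 (30.6%), and all 5 genes of the rule in 43 (12.5%). A Dlx gene with Prss12 but no Msx2 was the most frequent combination, at 148 cells (43.1%), followed by a Dlx gene with both Prss12 and Msx2, at 108 cells (31.5%). A Dlx gene alone marked 47 cells (13.7%), a Dlx gene with Msx2 31, Prss12 without any Dlx gene 8 and Msx2 alone 1. Prss12 supplied 37.8% of the UMIs of the rule, Dlx5 23.5%, Dlx6 18.5%, Dlx6os1 11.4% and Msx2 8.70%. The median cell had 6, 8.5 and 6 of these UMIs, and the highest had 26, 43 and 35.

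The threshold of 4 UMIs cut through a gradient. Adamtsl1 was at 15 CPM over the 853 gated smooth muscle cells with 1 such UMI, 40.8 over those with 2, 84.9 over the 120 cells just outside with 3, 111 over the 76 cells just inside with 4, 177 over those with 5 and 474 over the 209 cells with 6 or more. In APOE4 the cells with 3 UMIs already had 210 CPM of Adamtsl1, whereas in APOE2 those with 4 had 77.3 CPM and in APOE3 50.3 CPM. The median depth at 4 UMIs was 41515 UMIs per cell in APOE2, 24031 in APOE3 and 16429 in APOE4. A cell of low depth needs a higher level of the genes to pass.

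Genes of the rule were also detected together when depth was held equal. Over all gated smooth muscle cells thinned to 5000 UMIs, Prss12 was seen in 16.0%, 25.6% and 22.4% of cells with a Dlx UMI and in 1.14%, 1.09% and 0.969% of cells without one. Msx2 was seen in 5.92%, 10.3% and 11.2% against 0.210%, 0.124% and 0.180%. Mdga2, a cell adhesion gene outside the rule, was seen in 23.1%, 24.8% and 32.1% against 0.975%, 0.700% and 0.664%. Immune cells had Prss12 in 1.28%, 0% and 3.11% of cells and Mdga2 in 1.92%, 1.33% and 1.86%, so Mdga2 in cells without a Dlx UMI was at this background in each library and Prss12 in APOE2 and APOE4, while 0 of 75 APOE3 immune cells allow a share of up to 4.80%. Hand2, in contrast, was seen in 21.3%, 13.7% and 23.1% of cells with a Dlx UMI and 26.1%, 14.5% and 9.59% of those without, above in APOE4 and below in APOE2 and APOE3.

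Position along the aorta was read from genes that the study assigned to the arch or to the descending aorta. Hand2, a transcription factor of the arch and outflow tract, was at 70.7, 44.6 and 39.0 CPM in the Dlx6/Prss12 cells against 69.6, 38.6 and 26.0, a difference that edgeR did not call (log2 fold change 0.16 ± 0.14 (SE), adjusted p = 0.60). Of 23 Hox genes tested, 6 fell (26.1%, against 4.46% over all genes tested), 1 rose (Hoxd4, 4.35% against 4.96%) and 16 were not called. Hoxa7 was at 16.5, 5.39 and 2.495 CPM against 27.7, 33.8 and 44.6, below in every library, and the fall was called by edgeR (log2 fold change -1.99 ± 0.18, SD 1.71, adjusted p = 2.51e-27) and limma (adjusted p = 0.020) but not by DESeq2 (adjusted p = 0.077). Without cells over 60000 UMIs the fitted value was -2.72. At 5000 UMIs per cell, at least 1 of the 6 descending Hox genes was seen in 11.3%, 2.78% and 1.65% of the Dlx6/Prss12 cells and in 16.1%, 22.2% and 27.5% of the others, with 1.92%, 2.67% and 3.73% in immune cells, so the APOE3 and APOE4 shares lay near background. In APOE2 the share was 7.76% without cells over 60000 UMIs.

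In a sum of UMIs for each class and library, 16041 genes were tested by edgeR's quasi-likelihood test with library as a block and Benjamini-Hochberg adjustment. A total of 795 genes (4.96%) were higher and 715 (4.46%) lower in the Dlx6/Prss12 cells at an adjusted p under 0.05, together 9.41% of all genes, around a median log2 fold change of -0.05. These shares of 4.96% and 4.46% are the ones against which the counts of every gene list in this comparison are read. The call held by edgeR, limma and DESeq2 alike for 586 higher and 366 lower genes. Without APOE4 the counts were 481 and 143, and without APOE3 they were 555 and 394. The fit found 1 spread common to all genes, so its standard errors do not carry the differences between libraries. The SD of the 3 within-library log2 ratios is therefore given for the genes described in full, and for most of these it was larger.

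The gene with the largest fitted rise among those tested and above 50 CPM was Mdga2, which encodes a membrane-anchored adhesion molecule of synapses. It was at 71.0, 145 and 144 CPM in the Dlx6/Prss12 cells against 2.25, 1.55 and 1.196, a log2 fold change of 6.01 ± 0.16 (SE; SD over libraries 1.03, adjusted p = 6.94e-304 by edgeR and 1.4e-08 by limma). Every library lay far apart between the classes, and APOE2 was the lowest of the Dlx6/Prss12 sums. Negr1, another adhesion gene of neurons, was at 30.4, 116 and 80.5 CPM against 3.06, 1.28 and 0.658. Gria3 and Cdh18, a glutamate receptor subunit and a cadherin, rose by log2 fold changes of 3.59 ± 0.16 (SD 1.61) and 2.80 ± 0.15 (SD 1.12). Kcnip4, which encodes a partner of Kv4 potassium channels, rose from 51.3, 40.7 and 37.6 CPM to 284, 347 and 404 (log2 fold change 2.90 ± 0.13, SD 0.49) and was at only 9.75, 9.81 and 10.0 CPM in fibroblasts. In Dlx6/Prss12 cells of at most 60000 UMIs Kcnip4 was at 539.8, 383.2 and 394.4 CPM. APOE2 thus went from the lowest library to the highest.

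A further set of the rising genes encodes transcription and matrix factors. Prrx2, a homeobox gene of mesenchyme, was at 91.3, 163 and 140.0 CPM against 8.02, 7.75 and 5.71 (log2 fold change 4.06 ± 0.14, SD 0.59). Tshz2, a zinc finger factor, was at 71.6, 120.0 and 94.5 CPM against 9.07, 4.69 and 2.78, and fibroblasts had still more, at 378, 431 and 373 CPM. Without cells over 60000 UMIs the APOE2 levels of Prrx2 and Tshz2 were 152.4 and 117.4 CPM. Fbln1, a fibulin of elastic fibres, was at 126, 102 and 111 CPM against 17.5, 8.85 and 3.85, with 802, 883 and 744 in fibroblasts. Gdf10, a BMP family ligand, Frzb, a secreted Wnt antagonist, and Mdk, the growth factor midkine, rose by log2 fold changes of 3.50 ± 0.15 (SD 0.15), 3.07 ± 0.14 (SD 0.99) and 2.99 ± 0.15 (SD 0.72). Cytl1, a cytokine of cartilage, was at 210.2 and 181 CPM in APOE2 and APOE3 and at 27.1 in APOE4 against 25.9, 12.8 and 3.01, and its APOE2 level was 53.6 CPM without cells over 60000 UMIs. Its log2 fold change was 3.25 ± 0.14 (SD 0.42) and became 1.82 with Dcn under 0.05%.

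Among called genes with at least 50 CPM and the same direction in every library, the 12 largest falls were smaller than the 12 largest rises. Dgkb, a diacylglycerol kinase, fell from 101, 97.2 and 102 CPM to 36.6, 37.7 and 19.96 (log2 fold change -1.79 ± 0.14, SD 0.55, adjusted p = 4.84e-34 by edgeR and 5.54e-05 by limma). Des, the muscle intermediate filament desmin, fell from 130, 134 and 114 CPM to 84.4, 29.4 and 34.9, and the APOE2 level stood nearest to that of the other cells. Mylk4, a myosin light chain kinase family member, fell from 309, 267 and 224 CPM to 153, 161 and 96.4. The others were Pcsk5 (log2 fold change -1.52), Tafa1 (-1.42), Erbb4 (-1.4), Ccdc3 (-1.35), Kcnq5 (-1.25), Cmss1 (-1.11), Rhobtb1 (-1.06), Postn (-1.05) and Unc5c (-1.01), among them a proprotein convertase, a neuregulin receptor, a voltage-gated potassium channel, the matrix protein periostin and a netrin receptor.

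**Figure D2:**
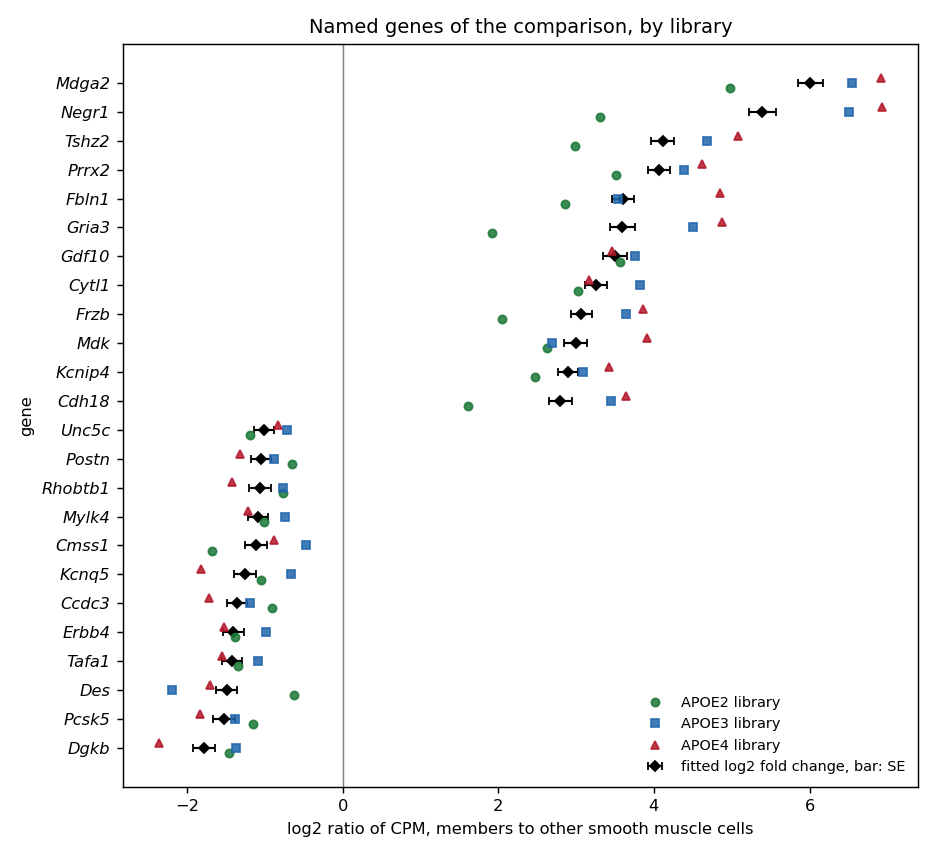
Log2 ratio of CPM between the Dlx6/Prss12 cells (members) and the other smooth muscle cells for the 12 genes with the largest rise and the 12 with the largest fall, with 1 point for each library and a black diamond for the fitted value with its SE. Only called genes with at least 50 CPM and the same direction in every library were ranked. All library points of a gene lie on the same side of 0, and the spread among libraries is widest for rising genes such as Negr1 (SD 1.98).

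Transcription factors of the pharyngeal arches and outflow tract were the list in which further Dlx genes appeared. Of its 77 genes 56 were tested, and 17 rose, 6 fell and 33 were not called, with a median log2 fold change of 0.18 against -0.05 for all genes tested. Dlx2 rose from 0.189, 0.131 and 0.150 CPM to 3.87, 11.8 and 8.42, and Dlx1 from 0.231, 0.084 and 0.010 to 3.27, 6.86 and 5.61. Tfap2b, a neural crest factor, rose from 0.660, 0.355 and 0.618 CPM to 12.4, 26.0 and 24.0 (log2 fold change 5.07 ± 0.26, SD 0.98). Barx1 and Pax9, both of the arches, rose by 5.04 ± 0.54 (SD 1.26) and 3.04 ± 0.29 (SD 0.53). Osr1, a zinc finger factor that is already abundant in this tissue, rose from 177, 177 and 149.7 CPM to 331, 522 and 433 (log2 fold change 1.23 ± 0.13, SD 0.37). The 6 that fell were Six4, Satb1, Heyl, Pbx3, Tbx18 and Foxs1. Twist1, at 44.7, 41.6 and 40.5 CPM against 38.1, 44.7 and 42.3, was not called.

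Of the 8 genes that the study placed in the descending aorta, all tested, 6 fell and 0 rose, with a median log2 fold change of -1.88. Beside the Hox genes these held Sema3a, a repulsive guidance cue, at 3.87, 5.39 and 4.37 CPM against 15.1, 23.5 and 29.4, and Tnc, the matrix protein tenascin C, at 9.23, 13.2 and 6.24 against 18.8, 35.4 and 31.3. Of the 7 tested arch genes of the study other than Prss12, 2 rose (Gng2 and Lbp), 1 fell (Pde1c) and 4 were not called. Gng2, a G protein gamma subunit, was at 15.6, 30.9 and 26.5 CPM against 1.91, 0.775 and 0.708. Lbp was at 22.0 CPM in APOE2 and had 0 UMIs in APOE3 and APOE4, and fibroblasts had 138, 90.7 and 51.4 CPM of it. Its rise was not called without cells over 60000 UMIs, which left 1 rise (Gng2) and 1 fall in the list, and with Dcn under 0.05% there were 1 rise and 2 falls. The study gave these gene lists and used these libraries, so the counts are not independent evidence of position.

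Contractile genes were lower where they were called. All 32 genes were tested, and 17 fell, 0 rose and 15 were not called, with a median log2 fold change of -0.43. Myh11 fell by 0.52 on the log2 scale (SE 0.15, SD 0.23, adjusted p = 5.5e-03 by edgeR). Smtn, or smoothelin, was at 351, 430 and 408 CPM against 452, 538 and 499, and Lmod1, leiomodin, at 581, 732 and 600.3 against 909.9, 792 and 756. Cnn1 and Myl9 were among those not called (adjusted p = 0.72 and 0.76). Of 39 tested genes of calcium handling and ion channels, 12 rose and 12 fell. Those that fell held the L-type channel subunits Cacna1c (109, 95.8 and 111 CPM in the other cells, 57.0, 49.96 and 67.7 in the Dlx6/Prss12 cells) and Cacnb2, and Kcnab1, a potassium channel subunit. Those that rose held Kcnj8, the pore of a K-ATP channel, at 89.2, 89.6 and 79.2 CPM against 45.1, 41.6 and 34.7, and Piezo2, a mechanosensitive channel, at 22.0, 68.6 and 43.7 against 13.1, 20.3 and 11.9.

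Rgs5, a regulator of G protein signalling known from pericytes and arterial smooth muscle, was at 536, 1074 and 856 CPM against 300, 475 and 231 (log2 fold change 1.2 ± 0.13, SD 0.54). In the list of vasoactive receptors and their regulators, 5 of 29 tested genes rose and 8 fell. Ednra, the endothelin receptor that patterns the arches during development, rose from 4.01, 2.12 and 2.10 CPM to 11.0, 24.5 and 15.6. Notch signalling showed 1 rise and 4 falls among 17 tested genes (5.88% and 23.5%, against 4.96% and 4.46% over all genes). Hey2, a Notch target of arterial cells, was at 24.7, 23.5 and 20.3 CPM against 41.0, 42.9 and 42.9, and Notch3 itself at 9.08, 9.80 and 9.36 against 11.6, 14.7 and 18.7.

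Genes of BMP signalling, bone and cartilage were measured next because Msx2 belongs to that response. Of 48 tested BMP and TGF-beta genes 15 rose and 2 fell (median log2 fold change 0.08), and of 33 tested osteochondrogenic genes 13 rose and 2 fell (median 0.12). Without cells over 60000 UMIs 14 osteochondrogenic genes rose and 5 fell, and with Dcn under 0.05% 12 rose and 7 fell. Over all genes 1068 rose and 1152 fell under the first limit and 1092 and 1381 under the second, against 795 and 715 without a limit. Runx2, the master factor of bone, was at 8.49, 14.7 and 14.03 CPM against 1.12, 0.896 and 0.588 (log2 fold change 3.70 ± 0.30, SD 0.85). At 5000 UMIs per cell it was seen in 4.67%, 9.72% and 5.79% of the Dlx6/Prss12 cells and 0.494%, 0.245% and 0.269% of the other smooth muscle cells, while immune cells had it in 6.09%, 1.33% and 11.2% and fibroblasts in 6.56%, 6.96% and 7.18%. Sox9, the master factor of cartilage, was at 14.7, 26.0 and 79.5 CPM against 7.78, 12.1 and 16.9 (log2 fold change 1.38 ± 0.15, SD 0.71). Grem1 and Nog, antagonists of BMP, were at 10.7, 4.41 and 4.68 CPM and at 1.49, 8.82 and 3.74 CPM, with under 0.3 CPM of each in the other smooth muscle cells. Bmp4 rose by 1.44 ± 0.19 (SD 0.13) and Msx1 by 0.95 ± 0.15 (SD 0.35), while Bmp2 fell. Alpl, Ibsp and Acan, genes of mature bone and cartilage, were not called. Alpl was at 3.72, 5.88 and 4.05 CPM against 2.88, 3.75 and 5.25, Ibsp at 2.23, 1.96 and 1.56 against 3.59, 2.60 and 1.52, and Acan at 11.2, 60.7 and 17.5 against 13.5, 35.8 and 19.3.

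The Wnt list rose in 8 and fell in 7 of 34 tested genes, and those that rose included the secreted antagonists Sfrp2 and Frzb and the receptor Ror2. Sfrp2 was at 876, 1507 and 1250.0 CPM against 182, 209 and 167 (log2 fold change 2.58 ± 0.14, SD 0.35). Sost, or sclerostin, a Wnt antagonist of bone that was abundant in all gated smooth muscle, was at 693, 1691 and 1550.0 CPM against 616, 1057 and 957 (log2 fold change 0.42 ± 0.14, adjusted p = 0.029 by edgeR). Elastic fibre and protease genes rose in 18 and fell in 3 of 46 tested genes, with a median of 0.36. Mfap5, a microfibril protein, was at 644, 783 and 1040.0 CPM against 249, 224 and 254. Collagens rose in 6 and fell in 1 of 28. Basement membrane genes fell in 10 and rose in 4 of 37, and the ones that rose included Lamc3 (86.8, 204 and 146 CPM against 31.5, 31.1 and 18.5) and Lama2 (99.0, 184 and 189 against 62.2, 42.2 and 42.8). Agrn, which encodes the known substrate of neurotrypsin, was at 17.7, 21.1 and 20.3 CPM against 14.8, 17.1 and 17.5 and was not called (adjusted p = 0.68), and Dag1, the gene of the agrin receptor dystroglycan, fell by 0.45 on the log2 scale.

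**Figure D3:**
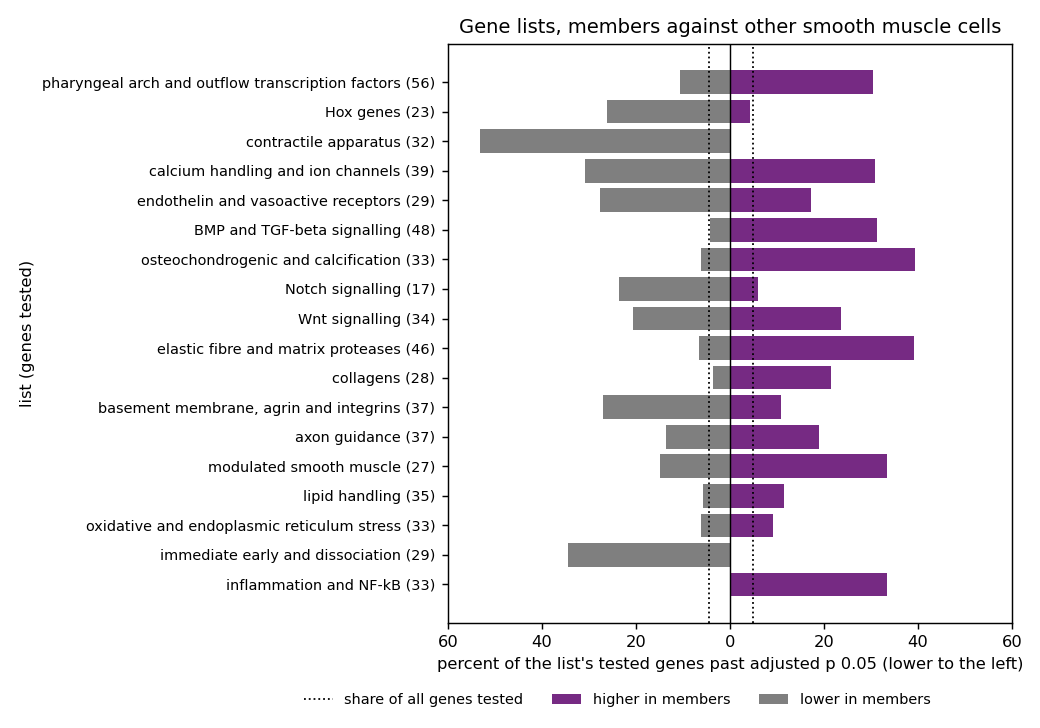
Percent of the tested genes of each list that were called higher (purple, to the right) or lower (grey, to the left) in the Dlx6/Prss12 cells (members) than in the other smooth muscle cells, with the number tested in brackets and the share over all 16041 genes (4.96% higher and 4.46% lower) as dotted lines. The contractile list has only lower calls (17 of 32) and the list of elastic fibre and protease genes mostly higher ones (18 of 46).

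The remaining lists are set against 4.96% higher and 4.46% lower over all genes. Axon guidance genes rose in 7 and fell in 5 of 37 (18.9% and 13.5%). Lipid handling genes rose in 4 and fell in 2 of 35 (11.4% and 5.71%). Oxidative and endoplasmic reticulum stress genes rose in 3 and fell in 2 of 33 (9.09% and 6.06%). The falls in lipid handling genes and the calls of stress genes lay near the share over all genes. Immediate early and dissociation genes fell in 10 (34.5%, against 4.46% over all genes) and rose in 0 of 29. Without cells over 60000 UMIs 22 of them fell, while over all genes the falls went from 715 to 1152. Egr1, for example, was at 604, 831 and 2009 CPM against 982, 1188 and 2153. Inflammation genes rose in 11 (33.3%, against 4.96% over all genes) and fell in 0 of 33, and genes of modulated smooth muscle rose in 9 and fell in 4 of 27. When only cells with Dcn under 0.05% of UMIs were kept, those counts became 6 rises with 5 falls and 4 rises with 10 falls. That limit left 93 of 150, 66 of 72 and 115 of 121 Dlx6/Prss12 cells, so it also changed the weight of APOE2. Under it 1092 genes rose and 1381 fell over all genes, and the rises and falls were 9 and 4 for collagens, 4 and 16 for basement membrane genes, 12 and 10 for the Wnt list, 11 and 5 for axon guidance, 7 and 4 for lipid handling, 8 and 6 for stress genes, 17 and 4 for BMP and TGF-beta genes, and 18 and 10 for the arch factors.

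Transcripts of other cell types moved with some of these results. The 12 fibroblast markers summed to 4440, 3870 and 3570 CPM in the Dlx6/Prss12 cells against 2060, 2370 and 1960 in the other smooth muscle cells, and 8 of the 11 that were tested rose. Dcn, their most abundant member in fibroblasts and limited by the gate, was at 1056, 237 and 175 CPM against 193, 112 and 62.6, with 13620, 17880 and 17490 in the fibroblast gate. With Dcn under 0.05% of UMIs the summed markers of the Dlx6/Prss12 cells were 2850, 3130 and 3200 CPM. In APOE2 the macrophage markers summed to 331 CPM against 145, led by Lyz2 at 101 CPM, and without cells over 60000 UMIs to 195 against 132, whereas with Dcn under 0.05% they summed to 72.3 against 101. In APOE3 and APOE4 the macrophage sums were 15.7 against 52.0 and 18.4 against 38.9, with 7 of the 12 markers at 0 in each. The endothelial markers summed to 584, 206 and 163 CPM against 432, 201 and 193, and the APOE2 sum turned to 372 against 417 without cells over 60000 UMIs and to 293 against 409 with Dcn under 0.05%. Cdh5, which defines endothelium, had 28 UMIs in APOE2 and 0 in APOE3 and APOE4. Erythroid markers were at 1270, 11.3 and 89.2 CPM against 590, 133 and 447, and the APOE2 sum was 2190 against 603 without cells over 60000 UMIs and turned to 252 against 585 with Dcn under 0.05%. Pericyte markers summed to 912, 1560 and 1300 CPM against 680, 892 and 637, with an APOE2 sum of 1400 against 692 and of 1690 against 703 under these limits, and Myh6 of cardiomyocytes had 0 UMIs. Neutrophil markers summed to 122 CPM against 76.8 in APOE2, which turned to 41.3 against 52.3 without cells over 60000 UMIs and to 2.20 against 25.4 with Dcn under 0.05%, and to under 2 CPM in the Dlx6/Prss12 cells of APOE3 and APOE4. Chondrocyte markers, some of which are also in the osteochondrogenic list, summed to 263, 289 and 135 CPM against 64.3, 95.9 and 51.4, with 799, 1180 and 809 in the fibroblast gate. With Dcn under 0.05% they were 51.6, 134 and 132 against 36.4, 90.2 and 49.8. The part of these transcripts in the results was not tested, apart from the repeats on cells with little Dcn and with at most 60000 UMIs.

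Set beside fibroblasts, which were gated with Acta2 and Tagln under 2% of UMIs, the rising genes divided. Of the 164 genes that were called higher, had at least 50 CPM and rose in all 3 libraries, 65 were also above the fibroblast gate in every library, 73 were below it in every library and 26 were mixed. Among the 65 were Mdga2, Prrx2, Frzb, Kcnip4, Rgs5, Osr1 and Mia. Rgs5 was at 26.5, 7.82 and 6.00 CPM in fibroblasts. Mia, a secreted protein of cartilage, was at 93.4, 148 and 221 CPM in the Dlx6/Prss12 cells, 29.6, 31.6 and 33.4 in the other smooth muscle cells and 13.6, 20.8 and 5.89 in fibroblasts. When only cells with Dcn under 0.05% were kept, 0 of the 65 genes lost the call and 8 of the 73 did. Those that lost it included the fibroblast genes Ly6a, whose log2 fold change went from 2.53 to 0.03, and Mmp3, from 1.55 to 0.31.

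**Figure D4:**
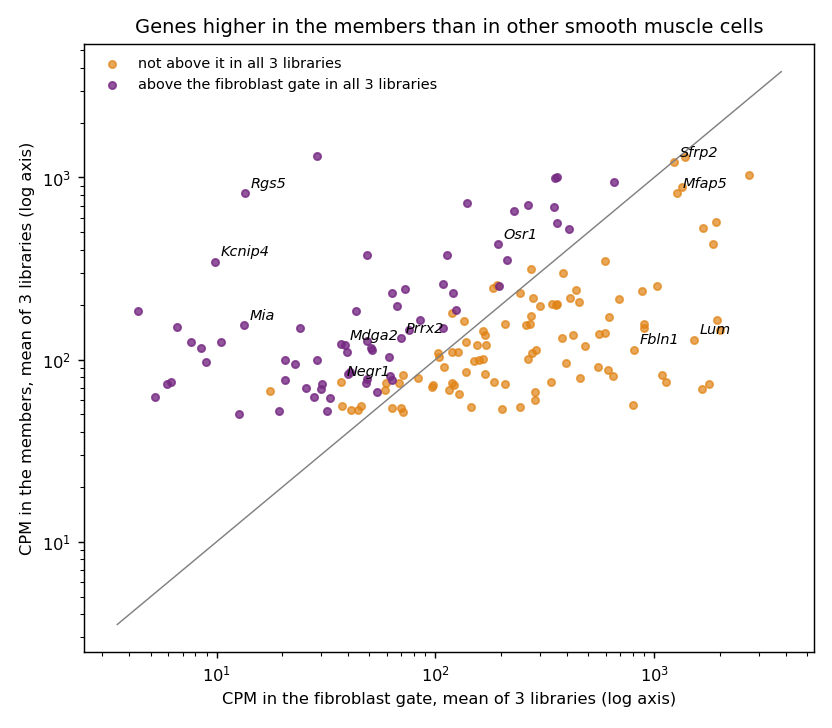
Mean CPM of the 164 rising genes in the Dlx6/Prss12 cells (members) against the fibroblast gate, both on log axes, with the 65 genes above fibroblasts in all 3 libraries in purple and the others in orange. Kcnip4, Rgs5 and Mia lie above the line of equal level, and Fbln1 and Lum below it.

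The comparison was repeated against the 3867 other smooth muscle cells with at least 2 Hand2 UMIs (2136, 1056 and 675), chosen by this arch marker. Among the Dlx6/Prss12 cells themselves, 91 of 150, 29 of 72 and 57 of 121 had any Hand2 UMI. By edgeR's quasi-likelihood test on 13283 genes, 669 (5.04%) were higher and 534 (4.02%) lower in the Dlx6/Prss12 cells, together 9.06%. The call held by edgeR, limma and DESeq2 for 453 higher and 315 lower genes. Without APOE4 the counts were 472 and 204, and without APOE2 they were 778 and 856. The Dlx6/Prss12 cells were again higher in Mdga2 (log2 fold change 5.84 ± 0.19, adjusted p = 1.86e-16), Negr1 (4.58 ± 0.30), Tshz2 (3.78 ± 0.24), Prrx2 (3.56 ± 0.14), Gdf10 (3.12 ± 0.13) and Fbln1 (3.09 ± 0.21). Among called genes with at least 50 CPM and the same direction in every library, the largest falls were Dgkb (-1.62 ± 0.16), Tnnt2 (-1.50 ± 0.17), Des (-1.41 ± 0.17), Nkain2 (-1.39 ± 0.14), Aspn (-1.29 ± 0.18) and Pcsk5 (-1.29 ± 0.15). Tnnt2, a troponin of heart and outflow tract, was at 135, 85.2 and 16.2 CPM against 304.1, 168.8 and 92.7. Both comparisons share the Dlx6/Prss12 sums, and the Hand2-positive cells are among the other cells, so neither is independent of the other.

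Hoxa7 was not called against the Hand2-positive cells. It was at 16.5, 5.39 and 2.495 CPM in the Dlx6/Prss12 cells and 7.64, 6.77 and 8.32 in the Hand2-positive cells, with overlap (log2 fold change 0.16 ± 0.31, adjusted p = 0.87). Rgs5 was at 536, 1074 and 856 CPM against 106, 157 and 77.5 CPM in the Hand2-positive cells (log2 fold change 2.77 ± 0.14, adjusted p = 5.45e-13). Kcnip4, Osr1, Runx2 and Tfap2b had log2 fold changes of 2.83 ± 0.11, 1.23 ± 0.11, 3.40 ± 0.30 and 5.78 ± 0.34, and Sox9 1.07 ± 0.15. Of the tested genes, arch factors rose in 17 and fell in 7 of 51, osteochondrogenic genes rose in 13 and fell in 2 of 28 (median 0.42), contractile genes rose in 1 and fell in 13 of 32, and immediate early genes fell in 19 and rose in 0 of 29. Over all 13283 genes the higher and lower shares were those given above.

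The Dlx6/Prss12 cells formed 2.19% of gated smooth muscle in APOE2 (95% Clopper-Pearson interval 1.86 to 2.57), 1.45% in APOE3 (1.14 to 1.82) and 2.12% in APOE4 (1.76 to 2.53). The log2 ratio of the shares was 0.60 (0.19 to 1.03) for APOE2 to APOE3, 0.55 (0.12 to 0.99) for APOE4 to APOE3 and -0.05 (-0.41 to 0.31) for APOE4 to APOE2. These intervals cover counting error only, and 1 library for each genotype gives no test. These ratios depended on the gates. Without cells over 60000 UMIs the shares were 1.72%, 1.4% and 2.11%, with a log2 ratio of 0.30 (-0.14 to 0.76) for APOE2 to APOE3. With at least 6 UMIs of the rule the shares were 1.17%, 1.05% and 1.35%, with cells thinned to 5000 UMIs and at least 2 UMIs of the rule 1.13%, 1.05% and 1.4%, and with Dcn under 0.05% 1.45%, 1.43% and 2.05%. With Acta2 and Tagln at 3% or more of UMIs they were 1.82%, 0.685% and 0.969%. The APOE3 library had the lowest share under each of these settings. The interval of the APOE4 to APOE3 ratio took in 0 with at least 6 UMIs of the rule (0.37, -0.16 to 0.91), with at least 3 (0.35, -0.02 to 0.73), with thinned cells (0.42, -0.10 to 0.96) and with Acta2 and Tagln at 3% or more (0.50, -0.18 to 1.2). The APOE4 to APOE2 ratio was 0.50 (0.10 to 0.91) with Dcn under 0.05% and -0.91 (-1.44 to -0.39) with Acta2 and Tagln at 3% or more.

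**Figure D5:**
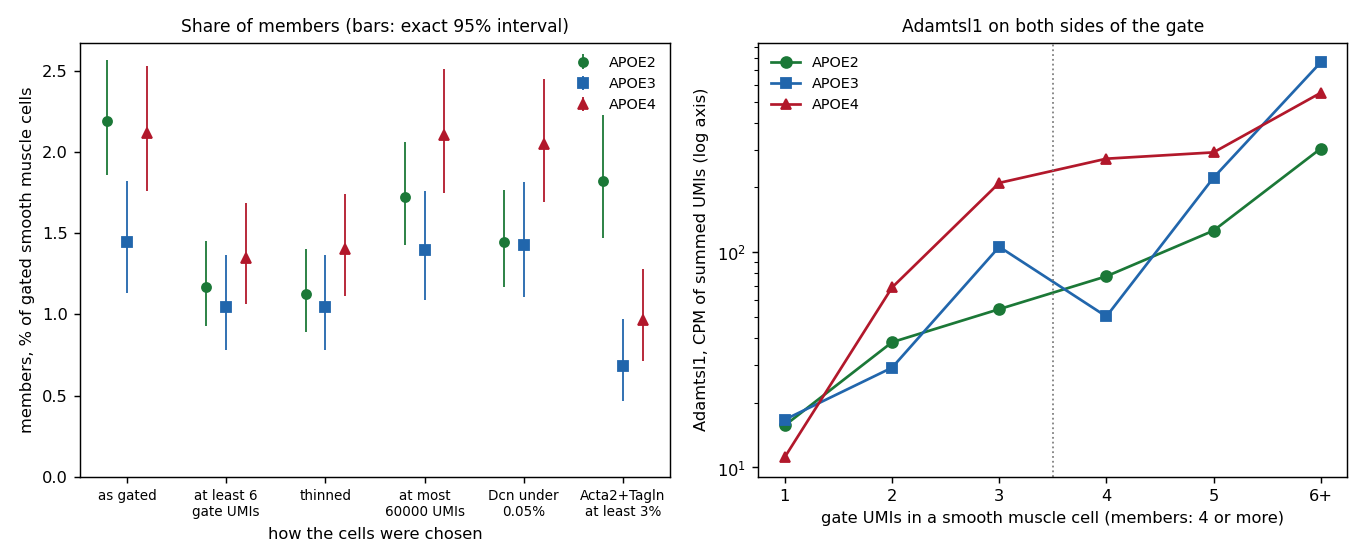
Left, share of Dlx6/Prss12 cells (members) among gated smooth muscle cells, in percent with 95% Clopper-Pearson intervals, for each library and setting of the gates, where APOE3 is the lowest library at each setting drawn (1.45% against 2.19% and 2.12% in the first). Right, Adamtsl1 in CPM on a log axis over smooth muscle cells with 1 to 5 and with 6 or more UMIs of the rule, where the level rises from 1 UMI to 6 or more across the threshold (dotted line), apart from a dip at 4 UMIs in APOE3 (50.3 CPM).

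Levels inside the Dlx6/Prss12 cells were compared between genotypes by the log2 ratio of CPM, with 2-fold as the size that counts and at least 50 UMIs in both libraries together. From APOE3 to APOE2, 217 of 9671 genes (2.24%) were at least 2-fold higher and 257 (2.66%) lower, and without cells over 60000 UMIs these counts were 83 and 78. From APOE3 to APOE4, 176 of 8458 genes (2.08%) were higher and 97 (1.15%) lower. From APOE2 to APOE4, 423 of 9965 genes (4.24%) were higher and 276 (2.77%) lower, and without cells over 60000 UMIs these counts were 201 and 105. The median gene of the APOE2 to APOE3 ratio stood at -0.17, and ratios are read against it.

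Genes of the rule were lower in APOE2 than in APOE3, with log2 ratios of -1.31 for Dlx5, -1.57 for Dlx6 and -0.96 for Prss12, and Adamtsl1, which the rule did not use, was at -1.52. Without cells over 60000 UMIs the ratios were -0.60, -0.79, -0.36 and -0.73, and with Dcn under 0.05% they were -0.31, -0.40, -0.12 and -0.36. The cells were chosen by a count of the rule's genes, so deep cells pass at a lower level, and the ratios are a description. The genes with the highest ratios of APOE2 to APOE3 were globin genes and Lcn2, which encodes lipocalin 2. Hbb-bs, a beta globin, was at 767 against 5.39 CPM and Hba-a2, an alpha globin, at 149.6 against 1.47. Lcn2 was at 178 CPM against 0 UMIs, and its cell of origin was not tested. Under the limit of 60000 UMIs they were at 1324 against 5.43, 257 against 1.63 and 144 CPM against 0 UMIs. With Dcn under 0.05% the log2 ratios were 4.95 for Hbb-bs, 4.31 for Hba-a2 and at least 5.45 for Lcn2. Over all the Dlx6/Prss12 cells they were 7.15, 6.67 and at least 6.92. When cells were thinned and chosen again, the direction of both globins turned, to log2 ratios of -0.71 for Hbb-bs and -1.95 for Hba-a2. That of Lcn2 was at least 2.66, a bound set by the 3 counts that stood in for its 0 UMIs in APOE3. Eif3j1, Pdzrn4 and Negr1 were the lowest, at log2 ratios of -2.07, -2.04 and -1.93 (95% interval -2.21 to -1.66 for Negr1). These became -1.57, -1.396 and -1.19 without cells over 60000 UMIs, and -1.43, -1.07 and -0.82 with Dcn under 0.05%, where Negr1 no longer reached 2-fold. In the other smooth muscle cells the ratios of APOE2 to APOE3 were 2.25 for Hbb-bs, 1.82 for Hba-a2 and 6.57 for Lcn2 (46.1 against 0.485 CPM), so these differences were not confined to the Dlx6/Prss12 cells. There Eif3j1 was at -1.56, Pdzrn4 at -0.49 and Negr1 at 1.26.

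Of 15 osteochondrogenic genes with enough UMIs, 1 was at least 2-fold higher in APOE4 than in APOE3 and 4 were lower. Their median log2 ratio was -0.26, and of 3 chondrocyte markers 1 was higher and 2 were lower. Over all genes compared for this pair, 2.08% were higher and 1.15% lower, with a median log2 ratio of -0.09. Sox9, the cartilage factor, had its highest level in APOE4. It was at 79.5 CPM in the APOE4 cells, 26.0 in APOE3 and 14.7 in APOE2, from 255, 53 and 99 UMIs. The log2 ratio of APOE4 to APOE3 was 1.62 (1.18 to 2.07) in the Dlx6/Prss12 cells and 0.48 (0.38 to 0.59) in the other smooth muscle cells. Without cells over 60000 UMIs the ratio was 1.54, and with Dcn under 0.05% it was 1.59. At 5000 UMIs per cell Sox9 was seen in 28.1% of the APOE4 cells, 11.1% in APOE3 and 9.33% in APOE2, against 5.71%, 4.55% and 2.80% of the other smooth muscle cells in that order, and in 1.24%, 0% and 1.28% of immune cells. The difference between these ratios was not tested.

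The other named genes between APOE4 and APOE3 were Gm26532, Ints6 and Ier3 on the higher side, at log2 ratios of 2.70, 2.24 and 2.15, and Cytl1, Vcam1 and Lum on the lower side, at -2.74, -2.40 and -1.97. The 3 higher genes were also higher in the other smooth muscle cells of APOE4, at 1.35, 1.19 and 1.53. The 3 lower genes were lower there too, at -2.09, -0.57 and -1.02. Ier3 is an immediate early gene. The list of immediate early and dissociation genes, which also holds heat shock genes, had 28 genes with enough UMIs. Of these 28, 12 were at least 2-fold higher in APOE4 than in APOE3, against 2.08% of all genes compared. The median log2 ratio of the list was 0.90, against 0.59 in the other smooth muscle cells. Over all genes compared in the Dlx6/Prss12 cells the median was -0.09. Vcam1, the adhesion molecule for leukocytes, was at 39.6 CPM in APOE4 and 209 in APOE3, a ratio that was -2.58 with Dcn under 0.05%, while Cytl1 and Lum turned to 0.04 and 1.16. From APOE2 to APOE4 the named genes were Eif3j1, mt-Nd3 and Ints6, at 2.27, 2.16 and 2.11, and Lcn2, Spp1 and Lyz2, which had 1, 1 and 2 UMIs in APOE4 and 1194, 840 and 677 in APOE2 (log2 ratios -9.16, -8.65 and -7.34, with intervals of -14.5 to -6.67, -14 to -6.17 and -10.4 to -5.48). Under the limit of 60000 UMIs the ratios of the lower genes were -8.81, -7.39 and -6.31. With thinned cells they were at most -3.28, -0.47 and -0.06. These are bounds set by the 3 counts that stood in for 0 UMIs in APOE4, so they do not measure the size of the difference. The ratios of the higher genes were 1.82, 1.51 and 1.81 under the limit of 60000 UMIs, and mt-Nd3 was at 1.17 with Dcn under 0.05% and, like Ints6, at 0.97 with thinned cells. All 6 genes differed in the same direction in the other smooth muscle cells, with ratios of 1.81, 1.30 and 1.33 for the higher genes and -12.2, -8.02 and -2.26 for the lower ones. All intervals on ratios and levels cover counting error only.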

How the data were processed

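Droplet libraries of mouse aorta cells, 1 for each APOE genotype, were used, and no other measurement of the study was analysed here. The authors deposited raw UMI counts of 32285 genes per barcode, aligned to mm10 with Cell Ranger (7.0.1 in the file headers), without normalization. Whether intronic reads were counted is not given in the sources used here. If they were, long genes gain UMIs.

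Cells were chosen by the rule given in the report. The members and the gene lists were chosen with earlier results of these data known. Doublets were scored by Scrublet in scanpy 1.11.5 and kept, except where the top 6% were removed as an alternative. Libraries shared 26, 30 and 23 barcodes, with 0 among the Dlx6/Prss12 cells. Pools hold several mice, so a library is a replicate of a cell class and not of a genotype, and no p-value refers to mice. In the first comparison the edgeR p-values rest on 1 spread shared by all genes, and not on each gene's own spread between the 3 libraries.

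UMIs were summed by class and library. Genes with at least 10 counts in at least 3 of 6 sums were fitted with edgeR 4.0.16 (quasi-likelihood, TMM, library as block) in R 4.3.3. limma 3.58.1 with voom and DESeq2 1.42.0 were alternatives. The prior degrees of freedom were infinite for the first comparison and 21.7 for the comparison with Hand2-positive cells, on 2 residual degrees of freedom. Counts were also simulated with 1 fixed spread for all genes, the same change in every library, and changes in abundant genes only. For the first comparison (15663 genes), 100% of 4-fold and 44% of 2-fold changes were recovered, with 6 false calls. For the second (12975 genes) these were 100% and 56%, with 4 false calls. The simulation cannot show how the fit does for genes whose change differs between libraries or that have few counts. The genes of the rule, Adamtsl1, Acta2, Tagln and Dcn were not tested, nor was Hand2 in the second comparison.

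Named genes were the 12 highest and 12 lowest by fitted change (6 and 6 in the second comparison) among called genes with at least 50 CPM and the same direction in every library, the 3 highest and 3 lowest ratios for each genotype pair at 100 CPM or more in 1 library, and, from the lists, the most abundant genes and the largest changes. Other genes were named after their values were seen, to describe a list. Intervals are at 95%, exact Poisson, conditional binomial or Clopper-Pearson, and cover counting error only. Where a sum had 0 UMIs, 3 counts stood in for it as its upper limit. Gene coordinates are from GENCODE M21, matched for 32158 genes. Alternatives were other gates, thinning to 5000 UMIs, stricter cell filters, other scaling, other minimum counts, and leaving out each library. The limits of 60000 UMIs and of 0.05% Dcn were chosen after the data were seen. Sums and intervals were computed in Python 3.11.15 (pandas 2.3.3, scipy 1.17.1, numpy 2.4.6). Some results are not reported here.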

Additional observations from a re-analysis of the deposited data

Results flagged for a closer look

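A few genes moved in opposite directions between the Dlx6/Prss12 cells and the other smooth muscle cells in different libraries. Each value is the log2 ratio of CPM between these classes within 1 library, and the difference between libraries was not tested. The complement genes of macrophages C1qa, C1qb and C1qc stood at 1.04, 1.24 and 1.27 in APOE2 and at -3.75, -2.10 and -3.27 in APOE3. The lysozyme gene Lyz2 was at 1.50 in APOE2 and -3.58 in APOE4. Globin genes were at 1.02 (Hba-a1) and 1.18 (Hbb-bs) in APOE2 and at -3.12 and -3.72 in APOE3, and Hbb-bt at 1.12 in APOE2 and -3.61 in APOE4. The chemokine genes Cxcl10 and Cxcl2 were at 1.12 and 1.32 in APOE2 and at -4.07 and -1.74 in APOE4. Complement C3 was at 2.07 in APOE4 and -1.61 in APOE3. Where a class had 0 UMIs, 3 counts were used in its place.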

How the results depend on the processing

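The fit of both comparisons has library as a block. With no replicate block (library), the counts against the other smooth muscle cells were 272 higher and 101 lower, and against the Hand2-positive cells 179 and 40. No paired analysis was possible between genotypes because each has 1 library. Leaving out each library gave 481 to 987 higher and 143 to 856 lower genes against the other cells, the lowest without APOE4 and the highest without APOE2. Against the Hand2-positive cells it gave 472 to 778 higher and 204 to 856 lower genes, with the same libraries at the ends. DESeq2 called 395 lower genes against the other cells and 327 against the Hand2-positive cells, and limma-voom 438 against the other cells. Thinning gave 420 and 400 higher genes. The limit of 60000 UMIs gave 1152 and 834 lower genes, and Dcn under 0.05% gave 1381 and 1064. These limits were chosen after the data were seen.

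The log2 ratio of shares for APOE2 to APOE3 was 0.16 (-0.359 to 0.695) with at least 6 UMIs of the rule and 0.11 (-0.419 to 0.643) with thinning. It was 0.0184 (-0.452 to 0.496) with Dcn under 0.05% and 1.41 (0.809 to 2.05) with Acta2 and Tagln at 3%. All but the last of these intervals took in both signs. For APOE4 to APOE2 it was 0.32 with thinning, 0.50 with Dcn under 0.05% and -0.91 with Acta2 and Tagln at 3%.

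For genes at least 2-fold apart (higher and lower), APOE2 to APOE3 gave 31 and 16 with thinning, 83 and 78 under the limit of 60000 UMIs, 58 and 52 with Dcn under 0.05%, 462 and 460 at a minimum of 20 UMIs, 132 higher at 6 UMIs of the rule, and 136 and 163 lower with scaling by the median gene and with the mean of each cell's CPM. APOE4 to APOE3 gave 54 and 20 with thinning and 332 and 290 at 20 UMIs. APOE4 to APOE2 gave 63 and 20 with thinning, 201 and 105 under the limit of 60000 UMIs, 188 and 98 with Dcn under 0.05%, 647 and 516 at 20 UMIs, 183 lower at 6 UMIs of the rule and 265 higher with the mean of each cell's CPM. The thinned sets hold fewer UMIs, so fewer genes reach the minimum. In the ratio of APOE2 to APOE3, Hbb-bs was -0.71 and Hba-a2 -1.95 with thinning, and in that of APOE4 to APOE3, Cytl1 was 0.043 and Lum 1.16 with Dcn under 0.05%. The causes were not tested. Of the genes named against the other smooth muscle cells, no result reversed under any alternative run, and 3 (Cytl1, Des and Cmss1) lost the call, all without the block. Against the Hand2-positive cells Tnnt2, Des, Aspn and Pcsk5 lost it without the block and Aspn by DESeq2 (adjusted p = 0.057). Counts of 72 to 150 cells limit the genotype values.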
